A study of Rattus norvegicus with 8 samples.

Results

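Gpnmb encodes a glycoprotein that spans the membrane once and sits mainly in lysosomes and in the pigment granules of melanocytes. It is listed in the deposited table as ENSRNOG00000008816, which is 1 of 23918 genes. The gene was chosen by its values in these tumours, because its level was lower after rapamycin and because it is linked to the kinase complex mTORC1. Its levels and its differences from control are therefore given as a description, without a test. The table holds Ensembl IDs alone. The pairing of this ID with the name Gpnmb was given with the choice of the gene, and 0 of the 23918 IDs could be matched to a symbol in the RefSeq gene table used here, so the pairing was not checked.

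The data are RNA sequencing libraries of 8 subcutaneous tumours grown from ELT3-V3 cells in NOD-scid hosts (female, injected at 6 weeks of age). ELT3 is a line from a rat uterine leiomyoma, a benign smooth muscle tumour, and it lacks tuberin (Tsc2), the protein that restrains mTORC1. All groups share this line and this host, a mouse strain without functional T and B cells, which keeps its macrophages and stroma. Mice entered the groups at random once tumours measured 150 to 200 mm3, and 2 tumours were sequenced in each of 4 groups. The first group received the vehicle, which was carboxymethylcellulose with Tween-80. The second received the mTORC1 inhibitor rapamycin, 0.25 mg/kg daily. The third received rapamycin together with clorgyline, 10 mg/kg daily, and the fourth received rapamycin together with rasagiline, 1 mg/kg daily. Clorgyline and rasagiline inhibit monoamine oxidase, the first with preference for the A form and the second for the B form. The rapamycin dose in the combinations is not repeated in the labels.

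GPNMB is also known as osteoactivin and is a relative of the melanosome protein PMEL. Besides pigment cells and melanoma it is made by macrophages, osteoclasts and tumours that lack tuberin, and its outer part can be shed from the cell surface by the protease ADAM10. Its gene is a known target of MITF, TFEB and TFE3, related transcription factors that drive lysosome and pigment genes and whose entry into the nucleus is controlled by phosphorylation from mTORC1 at the lysosome. In the lung disease lymphangioleiomyomatosis, for which ELT3 tumours are a model, lesions carry smooth muscle and melanocytic proteins together.

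These factors bind short DNA words called E-boxes, so the stretch before the gene is shown here with such a word marked. The RefSeq annotation of assembly GRCr8 places rat Gpnmb on chromosome 4, between the protein-coding genes Svs1 and Malsu1, with 1 RefSeq transcript and 0 overlapping genes. The sequence is the 250 bases directly before its RefSeq start, chr4:79340878-79341127 on the + strand of GRCr8, which is not the rn6 build that the submitters' processing notes name. Capitals mark an 8-base word of the melanocyte type, TCATGTGA, which lies here on the opposite strand and so reads TCACATGA.
Gpnmb: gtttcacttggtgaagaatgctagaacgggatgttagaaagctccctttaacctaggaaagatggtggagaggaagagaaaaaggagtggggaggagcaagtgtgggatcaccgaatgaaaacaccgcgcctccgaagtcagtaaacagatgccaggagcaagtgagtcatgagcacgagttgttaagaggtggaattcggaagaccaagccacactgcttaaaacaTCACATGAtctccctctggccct
The word covers the bases from 23 to 16 before the start. On both strands, 4 words were searched, and they overlap one another because each 8-base word contains a 6-base core. The window held 1 match each to TCATGTGA and to its core CATGTG, and 0 matches to CACGTG or to TCACGTGA. Among 33469 RefSeq promoter windows of the same 250 bases, 0.977% held TCATGTGA, 12.1% held CATGTG, 5.59% held CACGTG and 0.657% held TCACGTGA. The words were chosen after the sequence had been seen. A match describes the letters of this window and shows no binding, which these data did not measure.

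In the controls Gpnmb was among the most abundant transcripts of the tumour. Its level was 2080 TPM in control replicate 1 and 1922 TPM in control replicate 2. TPM is the share of a library's transcripts that belong to a gene after correction for gene length, scaled to a fixed sum. The gene stood at rank 50 and rank 61 by TPM in the same tumours, and 99.7% and 99.6% of the genes with a value above 0 lay below it. It made up 0.208% and 0.192% of all TPM, which is 1 transcript in 481 and 1 in 520. The median gene tested stood at 14.9 TPM in control replicate 1 and 13.6 TPM in replicate 2, so Gpnmb was 139 and 141 times as abundant as the median gene.

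In all 6 tumours given rapamycin, alone or in combination, Gpnmb was lower than in either control. The gene was chosen for this pattern, and the share of all genes tested that separated in this way was not computed. With rapamycin alone it stood at 473 TPM in replicate 1 and 462 TPM in replicate 2. With clorgyline added it stood at 429 TPM in replicate 1 and 334 TPM in replicate 2. With rasagiline added it stood at 337 TPM in replicate 1 and 341 TPM in replicate 2. The lowest control was 4.06 times the highest treated tumour, and the highest control was 6.22 times the lowest treated tumour.

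**Figure D1:**
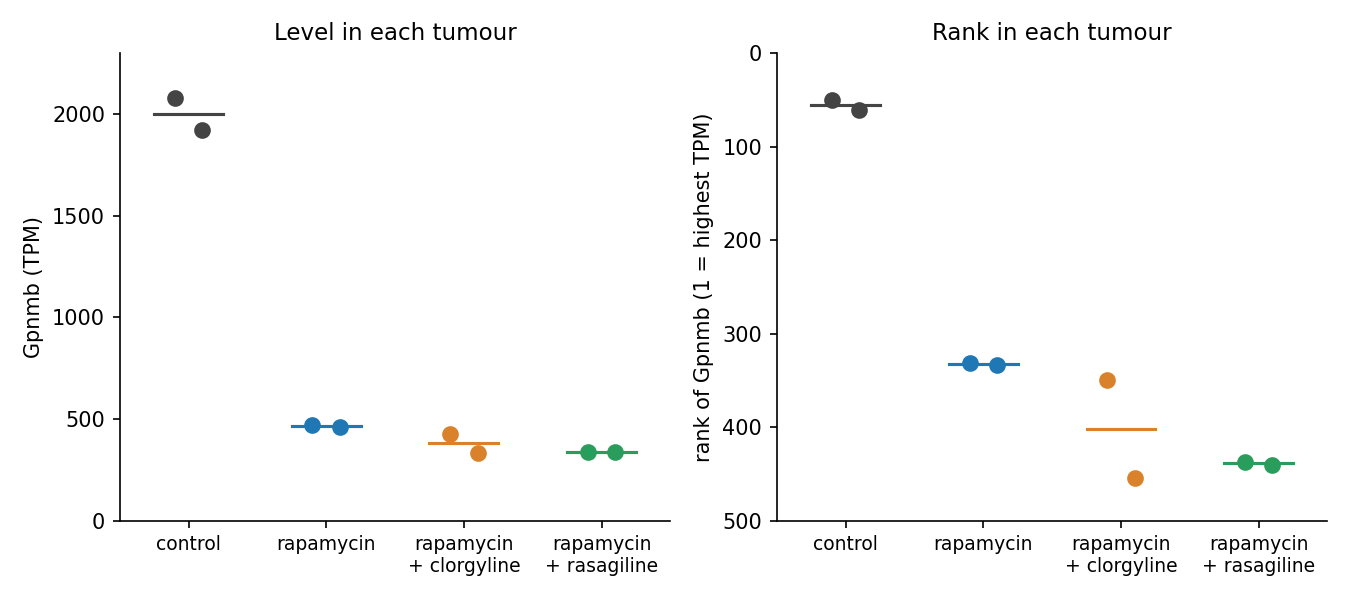
Level (left, TPM on a linear axis from 0) and rank by TPM among all genes (right, axis inverted so that the most abundant gene is at the top) of Gpnmb in 8 tumours; each point is a tumour and each line the mean of the 2 tumours of a group. The controls lie at 1922 and 2080 TPM and the 6 treated tumours between 334 and 473 TPM.

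The group means were 2001 ± 112 TPM in controls, 468 ± 7.37 TPM with rapamycin, 382 ± 67.1 TPM with the clorgyline combination and 339 ± 3.03 TPM with the rasagiline combination (SD, n = 2 each). Relative to the control mean, 23.4% of the level was present with rapamycin, 19.1% with rapamycin and clorgyline, and 16.9% with rapamycin and rasagiline. The 3 treated groups share the same 2 controls, so their differences from control are not independent of each other. On the scale of log2(TPM + 1) the differences from control were -2.09, -2.40 and -2.56 in this order, and -2.35 for the mean of the 3 groups. After quantile normalization, which forces the same distribution of values on every tumour, they were -2.30, -2.59, -2.75 and -2.54. In bulk tumours, fewer cells that make a transcript and less of it per cell cannot be told apart.

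The spread between tumours of a group was small for this gene. Its residual SD within groups was 0.134 on the log2 scale, with 4 residual degrees of freedom, against a median of 0.204 over the 570 genes whose mean log2(TPM + 1) exceeded 8, and 22.8% of those genes had a smaller one. The rapamycin tumours lay within 1.02-fold of each other, the rasagiline combination tumours within 1.01-fold and the controls within 1.08-fold. The clorgyline combination tumours differed by 1.28-fold, which made them the widest pair. Replicate 1 of that pair lay next to the tumours given rapamycin alone, and replicate 2 lay beside the rasagiline combination tumours.

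Rank does not depend on how a library is scaled, and it moved in the same way. Gpnmb stood at rank 331 and 333 in the rapamycin tumours, 349 and 454 with clorgyline, and 437 and 440 with rasagiline. It therefore still exceeded between 97.4% and 98.1% of the genes with a value above 0 in each treated tumour. Its share of all TPM was between 0.0334% and 0.0473%, or between 1 transcript in 2991 and 1 in 2115. Relative to the median gene tested it was between 20.4 and 31.7 times as abundant, against 139 and 141 times in controls. Controls and treated tumours do not overlap on this ratio, which rescales the values on which the gene was chosen and so adds no support.

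**Figure D2:**
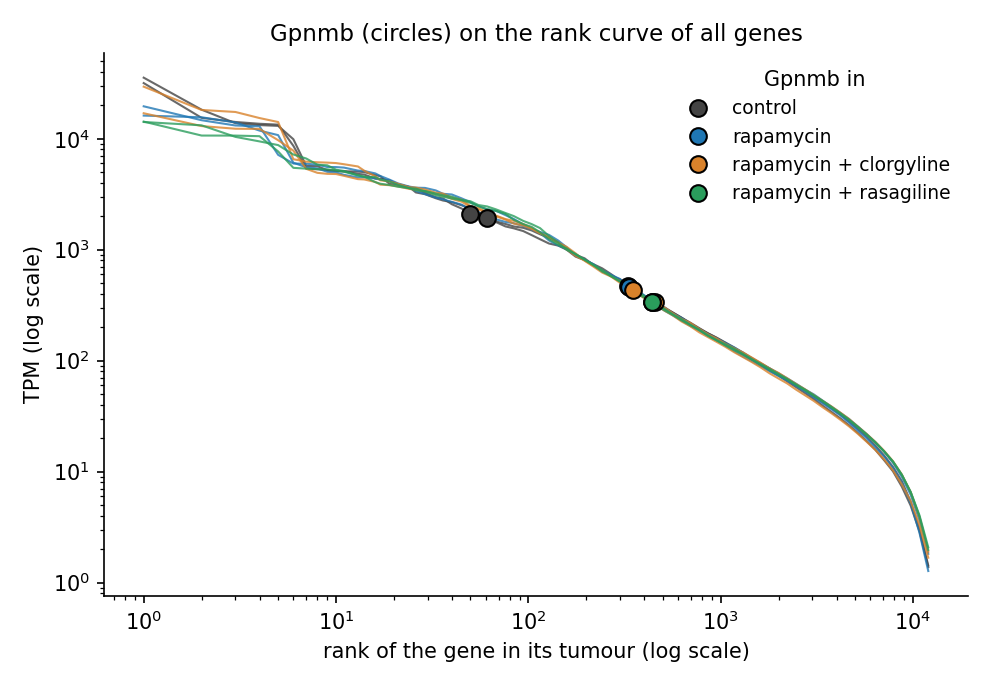
TPM of the gene at each rank (both axes logarithmic), with a line for each of the 8 tumours and a circle for Gpnmb in each, coloured by group. The lines lie close together in the middle ranks and differ more at the top, where the first gene runs from 14151.5 to 35508.1 TPM. The circles move from rank 50 and 61 in the controls to between rank 331 and 454 in the treated tumours.

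The fall in rank can be set beside the genes above Gpnmb and the genes it passed. There were 47 genes above Gpnmb in both controls, and all 47 were also above it in all 6 treated tumours. Another 215 genes lay below it in both controls and above it in all 6 treated tumours. The mean level of 214 of these 215 genes in the treated groups was within 1 log2 unit of control, and their median difference was 0.20 log2. Both counts follow largely from the size of the fall. Genes that fell at least as far as Gpnmb in every treated tumour could not be among the 215. Smaller falls were possible, and 63 of the 215 genes were lower in the treated groups than in control. For comparison, of the 570 genes with a mean log2(TPM + 1) above 8, 12 were lower and 11 higher by at least 1 log2 unit. The count of 214 therefore shows no particular steadiness of the genes passed. The gene ranked 100 stood at 1381 and 1524 TPM in the controls and between 1565 and 1738 TPM in the treated tumours.

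Against genes of all levels, the log2 difference of Gpnmb from control (-2.35 for the mean of the 3 treated groups) stood beside a median of 0.10 over the 13686 genes tested, which is -2.45 relative to that median. There were 22 genes, Gpnmb included, with a difference at least as far below 0, which is 0.161% of those tested. The other 21 were far less abundant, with a median of 22.2 TPM and a highest value of 210 TPM in the control mean. Among the 570 genes with a mean log2(TPM + 1) above 8, Gpnmb had the lowest difference. The next lowest were -1.61 and -1.25, and the median of these genes was 0.07. Of the 570 genes, 12 were lower and 11 higher by at least 1 log2 unit. These counts describe the contrast on which the gene was chosen and support nothing further.

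**Figure D3:**
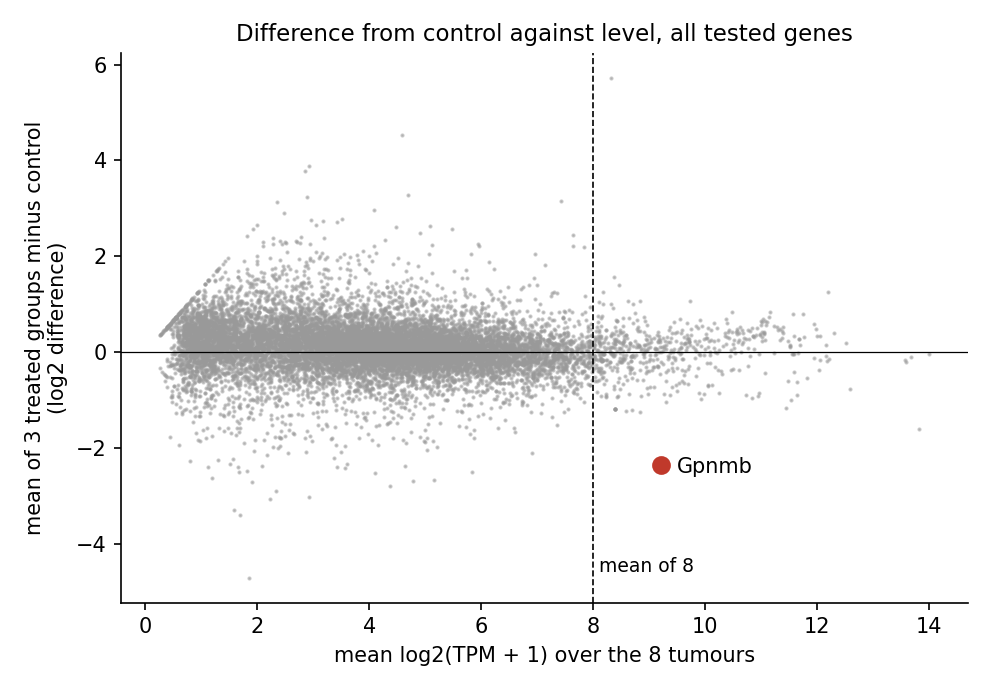
Log2 difference from control of the mean of the 3 rapamycin-containing groups (vertical axis) against mean log2(TPM + 1) over the 8 tumours (horizontal axis), with a point for each of the 13686 genes tested; the dashed line marks a mean of 8. Gpnmb, in red at 9.20 and -2.35, lies lowest among the 570 genes to the right of the line.

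The separation between tumours can also be given as the gap from the lowest control to the highest treated tumour. For Gpnmb this gap was 2.02 log2 units. Of the 13686 genes tested, 44 had a gap of at least 1 log2 unit, and 4 had a gap of at least 2.02. The 3 others had control means between 18.8 and 22.2 TPM, where Gpnmb stood at 2001 TPM. In absolute terms, 1605 TPM separated the control mean from the mean of the 6 treated tumours, and 6 of the genes tested lost more.

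The gene was chosen for its level and its change after rapamycin, with the values of all 8 tumours read by group. Differences between the treated groups were not the stated ground, but their tests may not be free of that choice. These differences ask whether a monoamine oxidase inhibitor moved Gpnmb beyond rapamycin. None of them passed the test. All 4 tumours that received an inhibitor lay below both tumours given rapamycin alone. Each difference is given with its 95% interval from limma, a linear model fitted to all 13686 genes tested.

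With clorgyline added, Gpnmb differed from rapamycin alone by -0.30 log2 (interval -0.68 to 0.07). The limma p was 0.101 unadjusted and 0.641 after Benjamini-Hochberg adjustment over all genes tested. In that comparison limma called 0 genes of 13686 (0%) at an adjusted p of 0.05, while 1042 had an unadjusted p below 0.05. This count moved with single tumours. It was 441 without rapamycin replicate 1 (3140 at an unadjusted p below 0.05), 2 without rapamycin replicate 2 and 3 without replicate 2 of the rasagiline combination, while the adjusted p of Gpnmb stayed above the threshold in each of these fits. The difference rested on replicate 2 of the combination. It was -0.48 with replicate 2 as the lone clorgyline tumour and -0.12 with replicate 1 as the lone one.

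With rasagiline added, both tumours (337 and 341 TPM) lay below both rapamycin tumours (473 and 462 TPM). The difference was -0.46 log2 (SE 0.161, interval -0.84 to -0.09). Its limma p was 0.0226 unadjusted and 0.721 after adjustment, so the difference did not pass the test over all genes. The test called 2 of 13686 genes (0.0146%) in this comparison, and 795 had an unadjusted p below 0.05, Gpnmb among them. Leaving out rapamycin replicate 1 gave 405 calls and leaving out rapamycin replicate 2 gave 4, while each control or combination tumour left out gave 0. Single tumours left out moved the difference only between -0.48 and -0.45, with adjusted p between 0.259 and 1. Across all the alternatives tried, the adjusted p lay between 0.259 and 1.

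The clorgyline and rasagiline combinations stood at 382 ± 67.1 and 339 ± 3.03 TPM (SD, n = 2 each). The drugs differ in structure and were given at different doses, so no effect of structure can be read from these values. The clorgyline combination minus the rasagiline combination was 0.16 log2 (interval -0.22 to 0.54, limma adjusted p = 0.997), and the test called 3 of 13686 genes (0.0219%), with 629 at an unadjusted p below 0.05. That count was 4 without either rapamycin tumour and 0 without any other single tumour. Without replicate 1 of the clorgyline combination the difference was -0.019. The interval includes differences of either sign, so it does not show that the combinations acted alike.

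After these values had been seen, the 4 combination tumours were also set together against the 2 given rapamycin alone. The difference was -0.38 log2 (interval -0.71 to -0.06). The limma p was 0.0274 unadjusted and 0.623 after adjustment over all genes tested, and limma called 0 of 13686 genes (0%), with 1085 at an unadjusted p below 0.05. It called 617 without rapamycin replicate 1 (3296 at an unadjusted p below 0.05), and 2 without either rapamycin replicate 2 or replicate 2 of the rasagiline combination. An exact permutation test over the 6 tumours gave a two-sided p = 0.0667, the smallest that 15 arrangements allow. All 4 combination tumours had already been seen to lie below both rapamycin tumours, so this p largely restates that order and adds no support. With 2 tumours against 2, an exact permutation test cannot go below 0.333. In order of level, the rapamycin tumours came first, then replicate 1 of the clorgyline combination, at 1.08-fold below the nearer of them. A 1.26-fold step followed, and the remaining 3 tumours lay between 334 and 341 TPM.

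The genes whose pattern over the 8 tumours was most like that of Gpnmb were far less abundant than Gpnmb, as nearly all genes were, whatever their pattern. Likeness was measured as the root mean square difference between log2(TPM + 1) profiles, each centred on its own mean. The 10 nearest of 10223 genes with a mean of at least 5 TPM were taken. Their differences from Gpnmb ran from 0.24 to 0.48 log2, against a median of 1.10 over all genes compared. The eleventh gene stood at 0.48 as well, so the boundary after 10 genes is no break in the data. Their control means ran from 12.2 to 359 TPM, and 3 of the 10 reached 100 TPM. For comparison, the gene ranked 1454 by TPM stood at 105 TPM in control replicate 1 and 102 TPM in control replicate 2. The share of the 10223 genes that reached 100 TPM was not computed, so the count of 3 does not set the nearest genes apart.

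The nearest was ENSRNOG00000025882. It stood at 14.0 and 11.4 TPM in controls, 2.58 and 2.59 TPM with rapamycin, 3.48 and 2.36 TPM with clorgyline, and 2.37 and 1.67 TPM with rasagiline. Replicate 1 was the higher of the clorgyline combination tumours, as for Gpnmb and in 6 of the 10 nearest genes. The share over all genes compared was not computed. The second was ENSRNOG00000057620. It stood at 358 and 360 TPM in controls, 83.9 and 75.8 TPM with rapamycin, 137 and 83.9 TPM with clorgyline, and 59.7 and 69.8 TPM with rasagiline. Unlike Gpnmb, its mean with clorgyline (110 TPM) lay above its mean with rapamycin alone (79.9 TPM). The deposited table does not pair these IDs with names.

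Likeness to Gpnmb followed mainly from the step between controls and treated tumours. All 10 genes were lower in every treated tumour than in either control, with log2 differences from control between -2.68 and -1.57. Among the treated groups they varied. The clorgyline combination mean was below the rapamycin mean in 4 of the 10, and the rasagiline combination mean was below it in 7. The shares over all genes compared were not computed, so these counts describe the 10 genes and do not set them apart. Pearson's r with Gpnmb over the 8 tumours ran from 0.89 to 0.987 in these genes. These 8 points fall into a cluster of 2 controls and a cluster of 6 treated tumours, so r mostly reflects that step. The genes ranked by r instead shared 2 of the 10. The nearest gene, ENSRNOG00000025882, was among those shared, and the second, ENSRNOG00000057620, was not.

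**Figure D4:**
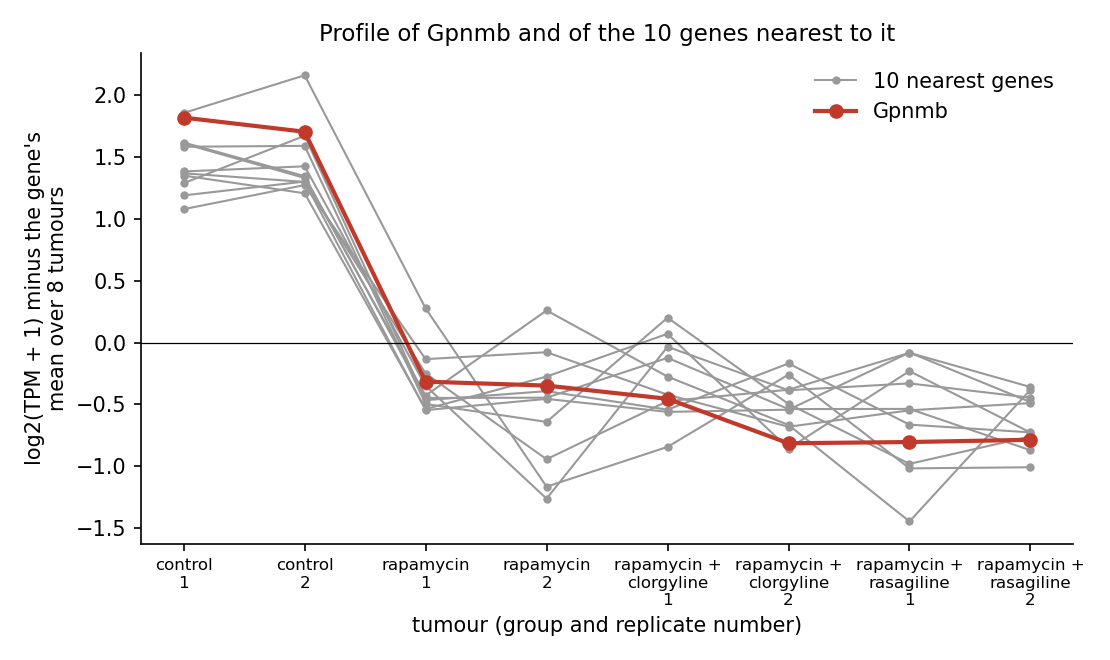
Log2(TPM + 1) minus each gene's own mean over the 8 tumours (vertical axis) in each tumour (horizontal axis), for Gpnmb in red and the 10 genes nearest to it in grey; lines join the values of a gene and imply no order of the tumours. All 11 profiles are high in the controls and lower in the 6 treated tumours, and the grey lines spread around Gpnmb among the treated tumours.

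Other genes of the pathway were not analysed here, since their IDs carry no symbols. These were 6 lists fixed by symbol, among them the Tsc-mTORC1 components, MITF, TFEB and TFE3, lysosomal genes, pigment cell genes and proteins that bind or shed GPNMB. For the same reason the smooth muscle markers of ELT3 cells and the markers of macrophages and other host cells could not be read. Whether mouse transcripts, such as those of host macrophages, added to the values of Gpnmb was not tested.

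Of the whole series, between 17001 and 18012 genes had a value above 0 in a tumour, and between 12317 and 13270 reached 1 TPM. Each library sums to the same total, so sequencing depth was unknown and no counting interval could be given. Whether the tumours came from separate mice is not stated, and the p-values then reflect only how much these 8 tumours varied, which may be technical.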

How the data were processed

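RNA from 8 tumours was extracted with TRIzol and made into Illumina TruSeq libraries, per the labels' protocols. The authors deposited 1 table of TPM values per gene and tumour. Build rn6, bedtools, DESeq2, SAMtools 0.1.18 and STAR 2.4.0f1 are listed, without roles, per the submitters' processing notes. Not given in the sources used here are the annotation, the TPM tool and any removal of mouse reads. TPM keeps no depth, and a gene's TPM also depends on the share taken by all others.

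Groups came from sample titles, and replicate numbers only name tumours. Genes with at least 1 TPM in at least 2 tumours were tested (13686 genes) as log2(TPM + 1), so fold changes are on this scale. All 8 tumours entered 1 fit of 4 group means by limma 3.58.1 (R 4.3.3), with variances moderated along an intensity trend (prior degrees of freedom 3.37 at the median), two-sided tests, with Benjamini-Hochberg adjustment and a threshold of 0.05. The fit was tested on simulated data. Descriptions used pandas 2.3.3 and matplotlib 3.10.9 in Python 3.11.15.

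The genes named are Gpnmb and, from the 10 nearest profiles, the first 2. The rule also covered listed genes and neighbours in rank, which need symbols. The gene, lists and tests were chosen with earlier results of these data known. Alternatives were other pseudocounts, filters and scalings, a fit without the variance trend, fits restricted to the groups of a comparison, and each tumour left out.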

Additional observations from a re-analysis of the deposited data

How the results depend on the processing

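The direction of the difference of Gpnmb from control held under all 15 alternatives for each group and for the mean. On the log2 scale, quantile normalization gave -2.30 with rapamycin, -2.59 with clorgyline added, -2.75 with rasagiline added and -2.54 on average, and median rescaling gave -2.72 with rasagiline added. The other changes of pseudocount, filter, scaling or trend moved these values by less than the spread between replicates. Leaving out each tumour in turn gave -2.15 to -2.04 with rapamycin, -2.58 to -2.22 with clorgyline added, -2.61 to -2.50 with rasagiline added and -2.41 to -2.29 on average. These fits give a group of 1 tumour the spread of the other groups.

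Between treated groups, none of the 16 alternatives brought a comparison past the threshold. With single tumours left out, the clorgyline combination differed from rapamycin by -0.48 to -0.12, the rasagiline combination by -0.48 to -0.45, and both together by -0.47 to -0.29. The clorgyline combination minus the rasagiline combination ran from -0.019 to 0.34, and changed sign (-0.019) without replicate 1 of the clorgyline combination. The adjusted p ran from 0.41 to 0.942, 0.259 to 1, 0.253 to 0.992 and 0.847 to 1 in this order. The comparison of both combinations together was added after seeing the data.

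Of the 10 genes most like Gpnmb, 2 were shared when ranked by Pearson r, 7 with a minimum mean of 1 TPM and 8 with a pseudocount of 0.1 TPM. Alternatives for the listed genes, and a rank without mitochondrially encoded genes, were not run because the IDs carry no symbols. No paired analysis was possible because the letter and number codes in the sample titles are not explained in the labels. Some letters and numbers recur across groups, but any groups compared share no more than 1 letter and 1 number.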
